A study of Mus musculus with 4 samples.

Results

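Foxp3 and 8 transcription factor genes that act with it were followed across RNA sequencing libraries of mouse regulatory T cells (Treg cells). The 9 genes were picked by symbol from a count table of 27179 genes: the forkhead genes Foxp3 and Foxp1, the RUNX genes Runx1, Runx2 and Runx3 with their partner Cbfb, the ETS genes Ets1 and Elf1, and the zinc finger gene Bcl11b. The cells were CD4+Foxp3+ and came, at steady state, out of the spleen and the peripheral lymph nodes of the C57BL/6 strain. There were 2 libraries labelled P65KO, described as RelA/p65-deficient, and 2 labelled WT. RelA, also called p65, is an activating subunit of the NF-kB transcription factor. The sources used here do not give how RelA was deleted, in which cells, the age of the mice or whether mice were pooled. Since no label ties the replicates to separate mice, the p-values reflect the spread among the 4 libraries alone, and that spread may be technical.

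Foxp3 is the lineage-defining factor of Treg cells and works in complexes with other DNA-binding proteins. RUNX proteins bind DNA as heterodimers with CBF-beta, the Cbfb product, and RUNX complexes both bind Foxp3 protein and help to keep the Foxp3 gene active. Ets1 and Bcl11b also support Foxp3 expression, and Foxp1 recognises DNA letters much like those of Foxp3.

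Libraries held 4513863 to 4624230 counts and 14025 to 14392 genes with a count. The T cell genes Cd3e, Cd3d and Cd3g summed to 11075 and 10980 counts in P65KO libraries, against 12765 and 13321 in WT. Of 11 T cell markers, all tested, Cd247 was higher in P65KO, Cd3g and Trac were lower, and 8 did not pass. Of 7 Treg markers, all tested, Ctla4, Ikzf2, Tnfrsf18 and Izumo1r were lower, Il2ra and Gpr83 were higher, and Foxp3 did not pass. The Treg list summed to 2500 and 2871 CPM (TMM-scaled) in P65KO and 3395 and 3323 CPM in WT. All but Foxp3 are also among the genes that Foxp3 is known to activate, given below. Over all genes tested, 9.0% were higher and 11.7% lower. Cd8a stood at 11 and 4 counts in P65KO and at 4 and 6 in WT. Cd8b1, the other CD8 gene read, had 138 and 141 counts in P65KO and 113 and 114 in WT. The B cell factor gene Pax5 was at 0 in all 4 libraries. Rela itself had 820 and 909 counts in P65KO libraries and 875 and 806 in WT, and a count summed over the full gene cannot check the label where only some exons are deleted. Xist had 0 and 2 counts in P65KO libraries, against 494 and 608 in WT, while Y-linked Ddx3y had 302 and 404 counts in P65KO and 0 in WT. Genotype label and sex-linked transcripts cannot be told apart in these 4 libraries. Of 20 myeloid and dendritic markers, 15 were tested, and 12 of these were higher in P65KO and none lower. The 20 markers summed to 1326 and 492 CPM (counts scaled for library size by TMM) in P65KO libraries, against 311 and 357 CPM in WT. Lyz2 alone gave 635 and 193 CPM of this in P65KO and 90.9 and 141 CPM in WT. Cybb stood the other way, at 109 and 45.8 CPM in P65KO and 148 and 118 CPM in WT. It did not pass (edgeR adjusted p = 0.0530). Siglech and Ly6g were at 0 in P65KO and at 0 or 1 count in WT. Of 6 erythroid markers, all 4 tested were higher, and the list summed to 105 and 192 CPM in P65KO, against 21.3 and 27.8 CPM in WT. The B cell list summed to 18.7 and 12.4 CPM in P65KO and 36.9 and 42.0 CPM in WT. Its only tested gene was Cd79b, at 14.1 and 10.2 CPM in P65KO and 33.9 and 39.2 CPM in WT. The list of NK and innate lymphoid cells summed to 17.6 and 13.95 CPM in P65KO and 21.7 and 29.0 CPM in WT. Of its 3 tested genes only Klrb1c was lower, at 5.07 and 2.66 CPM in P65KO and 14.8 and 19.2 CPM in WT. Ncr1 and Eomes did not pass. Eomes stood higher in P65KO, at 7.94 and 7.75 CPM, against 4.77 and 4.30 CPM in WT. The part of these other transcripts in the results below was not tested. In bulk libraries, fewer cells of a type and less RNA per cell cannot be told apart.

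Within the RUNX family, Runx2 and Runx3 were lower in P65KO libraries, while Cbfb, the shared partner, and Foxp1 were higher. Runx2 was 3.79-fold lower and Runx3 1.63-fold lower, and Cbfb was 1.35-fold and Foxp1 1.46-fold higher. Foxp3, Runx1, Ets1, Elf1 and Bcl11b did not pass the test. All 9 members were tested, and 4 passed, 2 in each direction. Over all 11172 genes tested, 20.7% passed, 9.0% as higher and 11.7% as lower in P65KO (quasi-likelihood test of edgeR, here and below with p-values adjusted over all genes by the Benjamini-Hochberg method and a threshold of 0.05). Without WT replicate 1, WT replicate 2 or P65KO replicate 2, 2 members passed each time, and 771, 743 and 1490 genes passed in all, against 2310 with all 4 libraries. With no filter on low counts, 1 member passed. The median log2 difference was 0.17 over the 9 members and 0.00 over all genes tested. CPM ranges of the groups did not overlap for 8 of 9 members, against 60.5% of all genes tested, so separation alone says little with 2 libraries a group.

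**Figure D1:**
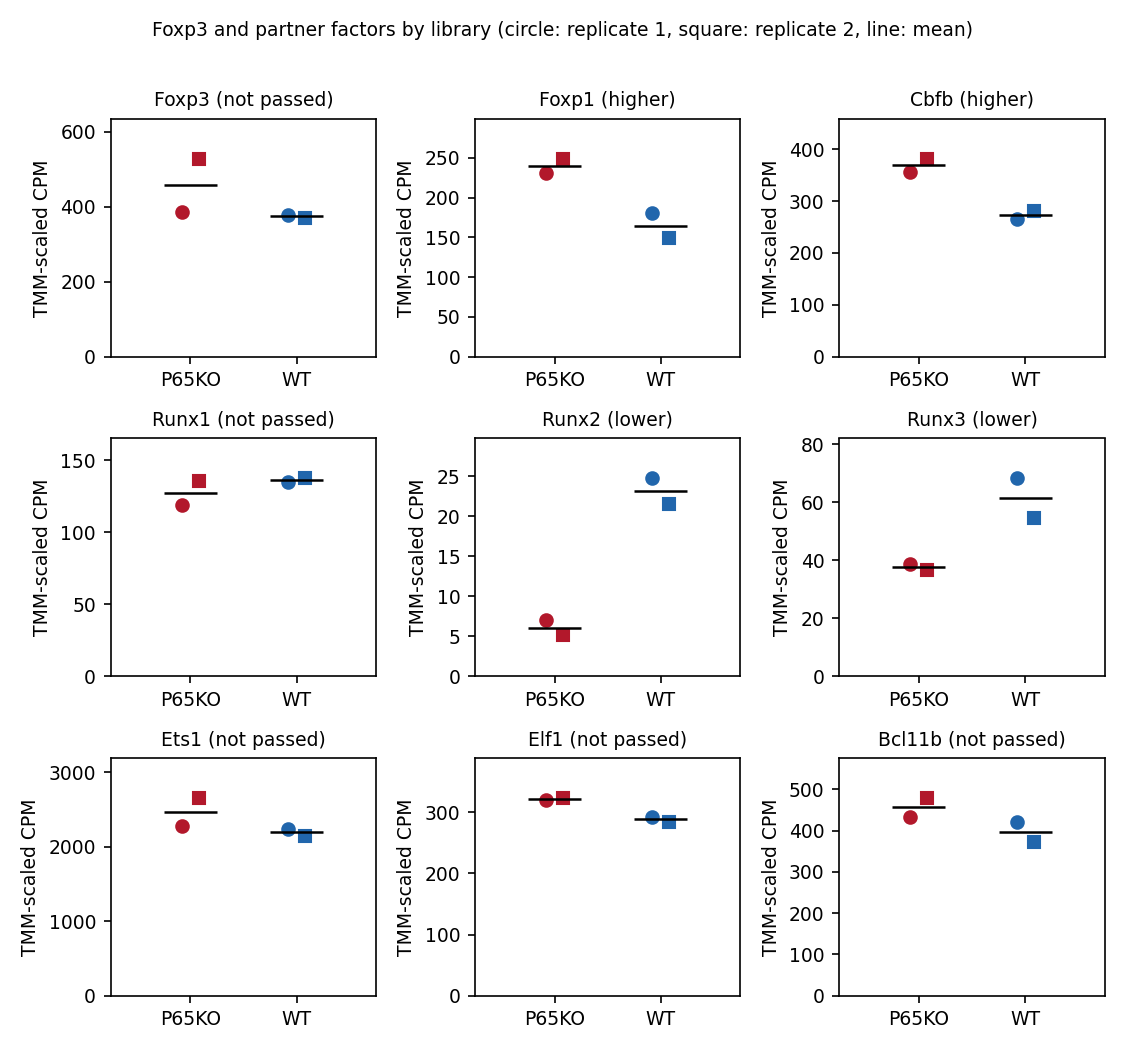
TMM-scaled CPM of each member (y axis, from 0) in the 2 P65KO libraries (red) and the 2 WT libraries (blue), with the mean as a line. The Runx2 and Runx3 points of P65KO lie well below those of WT, those of Foxp1 and Cbfb lie above, and Foxp3 is raised in P65KO replicate 2 alone, at 528 CPM.

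**Figure D2:**
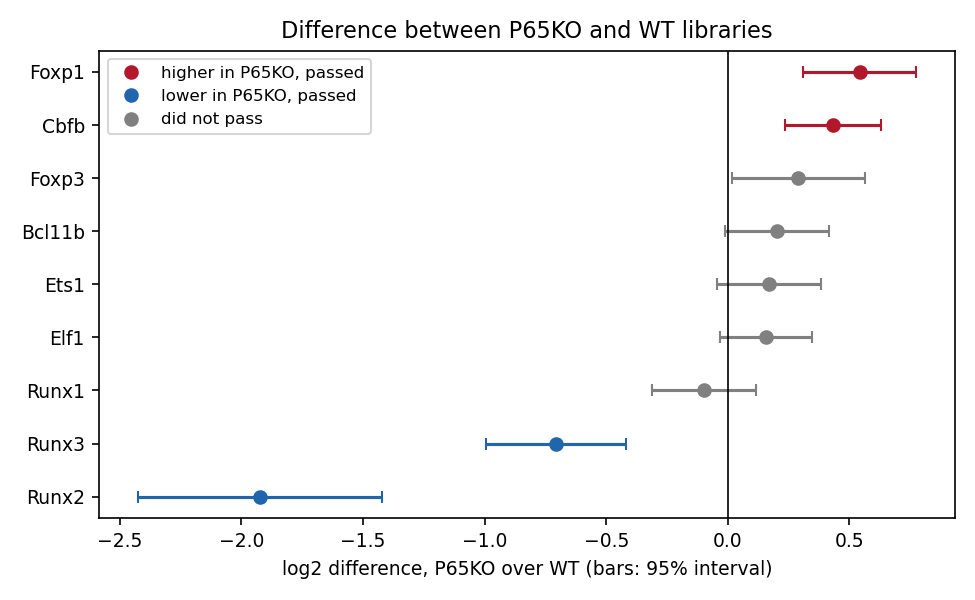
Log2 difference of P65KO over WT (x axis) for each member, with the 95% interval of the edgeR fit as bars. The interval of Runx2 runs from -2.42 to -1.42, and the grey intervals of Foxp3, Bcl11b, Ets1, Elf1 and Runx1 reach close to or across 0.

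Levels between genes were compared per gene length, on the RPKM scale (library counts scaled for depth and for kilobases of gene) taken from the authors' deposited log2 values. Ets1, an ETS factor abundant in resting lymphocytes, was the highest member at 444 and 513 RPKM in P65KO libraries, against 452 and 428 RPKM in WT, and its mean over all libraries exceeded that of 98.4% of the genes tested. Cbfb followed with a range over the 4 libraries of 93.2 to 128 RPKM and Foxp3 with 95.2 to 131 RPKM. These neighbours overlapped, and their order differed between libraries. Elf1 came next at 68.1 to 75.1 RPKM, then Bcl11b at 47.5 to 59.2 RPKM and Foxp1 at 20.1 to 32.5 RPKM, with no overlap between neighbours. Runx1 spanned 16.0 to 18.8 RPKM and Runx3 9.25 to 18.0 RPKM. Their ranges overlapped across libraries, although Runx1 was above Runx3 in each of the 4. Runx2 was the lowest member at 0.734 to 3.66 RPKM, above 11.9% of the genes tested.

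Runx2, best known as the master regulator of bone formation and also expressed in some T cells, showed the largest difference among the members. It had 32 and 23 counts in P65KO libraries, against 114 and 100 in WT, or 7.06 and 5.09 CPM in P65KO and 24.7 and 21.5 CPM in WT. Both P65KO libraries were far below both WT libraries. The means were 6.08 ± 1.39 CPM in P65KO and 23.1 ± 2.28 CPM in WT (SD, n = 2 each), which differed by -1.92 on the log2 scale with an SE of 0.23 (edgeR adjusted p = 8.28e-05). Its call held in all 11 other settings tried, with log2 differences from -2.17 to -1.71. The gene lies on chromosome 17, 44495987 to 44814797 (GRCm38), and overlaps Supt3, a transcription co-activator subunit gene with 86 and 83 counts in P65KO and 103 and 92 in WT. Reads of overlapping genes may not be fully separable, since the strand setting of the counting is not given.

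Runx3, which drives the cytotoxic program of CD8 T cells and controls the integrin gene Itgae, also fell. It had 175 and 166 counts in P65KO libraries, against 315 and 254 in WT, or 38.6 and 36.8 CPM in P65KO and 68.4 and 54.7 CPM in WT. The P65KO libraries were close to each other and below both WT libraries, which were further apart. The means were 37.7 ± 1.30 CPM in P65KO and 61.5 ± 9.69 CPM in WT (SD, n = 2 each), which differed by -0.71 on the log2 scale with an SE of 0.13 (edgeR adjusted p = 0.00237). The call was lost without WT replicate 1, at log2 -0.54 (edgeR adjusted p = 0.0796), and with no filter on low counts (edgeR adjusted p = 0.0688). The gene spans 135120645 to 135177990 of chromosome 4 (GRCm38).

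Runx1, the RUNX protein first described as a partner of Foxp3, had 540 and 611 counts in P65KO libraries, against 620 and 639 in WT. That was 119 and 135 CPM in P65KO and 135 and 138 CPM in WT, and the groups overlapped. The log2 difference was -0.10 (SE 0.10, edgeR adjusted p = 0.546), with a 95% interval of 0.806-fold to 1.08-fold. A fall as large as that of Runx3 lay outside that interval.

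Cbfb, which makes the non-DNA-binding partner of all RUNX proteins, went up. It had 1611 and 1724 counts in P65KO libraries, against 1226 and 1302 in WT, or 355 and 382 CPM in P65KO and 266 and 280 CPM in WT. Both P65KO libraries were above both WT libraries, and the gap was larger than the spread within either group. The means were 369 ± 18.7 CPM in P65KO and 273 ± 9.96 CPM in WT (SD, n = 2 each), which differed by 0.43 on the log2 scale with an SE of 0.09 (edgeR adjusted p = 0.00457). The call was lost without WT replicate 1, WT replicate 2 or P65KO replicate 2 (edgeR adjusted p of 0.0869, 0.0568 and 0.0738) and with no filter (edgeR adjusted p = 0.0541). The log2 difference stayed between 0.38 and 0.49 in all 11 settings. Cbfb spans 105170674 to 105217989 of chromosome 8 (GRCm38).

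Summed over Runx1, Runx2 and Runx3, the RUNX level was 26.8 and 27.9 RPKM in P65KO libraries, against 40.3 and 36.1 RPKM in WT. Runx1 made up 59.6% and 64.2% of that sum in P65KO libraries and 46.3% and 52.1% in WT. Runx3 made up 36.6% and 33.1% in P65KO and 44.6% and 39.2% in WT, and Runx2 3.81% and 2.63% in P65KO and 9.09% and 8.70% in WT. In each P65KO library the Runx1 share was above, and the shares of the other RUNX genes below, those of both WT libraries. The Runx1 to Runx3 ratio was 1.63 and 1.94 in P65KO libraries and 1.04 and 1.33 in WT. Per unit of RUNX transcript there was more Cbfb transcript in P65KO, with a ratio of 4.54 ± 0.0642, than in WT, with 2.50 ± 0.259 (SD, n = 2 each). These ratios are within a library and do not depend on scaling between libraries. They are given as a description with no test. An exact two-sided permutation test of 2 against 2 libraries could not give a p below 0.33.

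**Figure D3:**
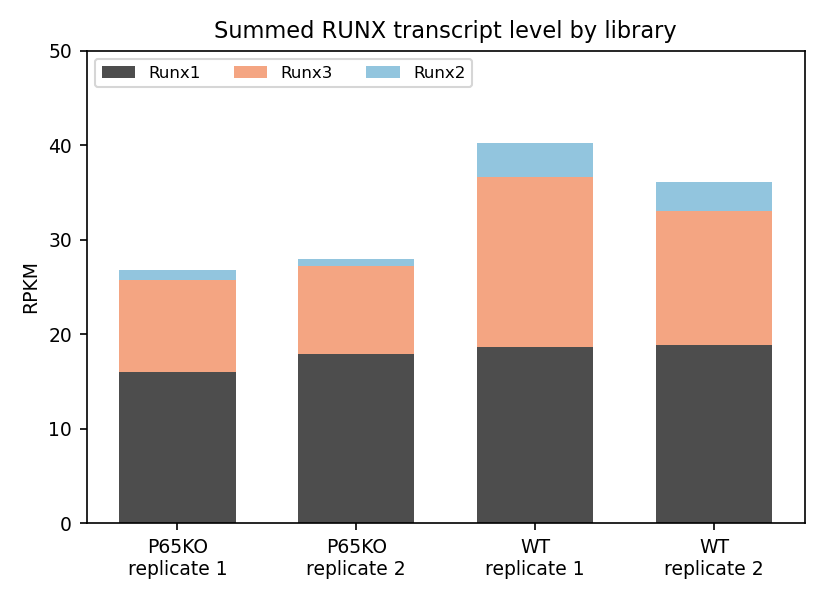
RPKM of Runx1, Runx3 and Runx2 stacked for each library (y axis from 0), with P65KO libraries on the left. The Runx1 segment is of similar height in all 4 bars, and the Runx3 and Runx2 segments are smaller in the P65KO bars, whose totals are 26.8 and 27.9 RPKM.

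Promoter windows, 250 bases before to 50 after a start site, were taken from RefSeq (GRCm38.p6) for 8 of the 9 members, 14 windows in all. Ets1 was not matched. The RUNX core letters TGTGGT, searched on both strands, stood in 3 of the 14 windows and in 16.8% of the 32851 windows of all genes. All 3 were windows of RUNX genes, 1 each of Runx1, Runx2 and Runx3. The ETS letters CCGGAA stood in 1 member window, of Runx1, against 14.9% of all windows. The letters GGGNNTTCC, a form of the NF-kB element, stood in none of the 14, against 5.82% of all windows. At that share, none among 14 windows says little. Other forms of the element were not searched, so NF-kB sites may still be present. In each of the 3 RUNX windows the letters occurred as a direct repeat whose copies start 8 bases apart. That spacing was found in 7 of all 32851 windows (0.0213%), these 3 included. It was searched for after other promoter results had been seen, so the share is a description and not a test. The stretches with the repeat are shown because the 3 RUNX genes share them while their differences between P65KO and WT were unlike. Whether the repeat bears on transcript level was not tested. They are given 5′ to 3′ on the gene's strand, with the repeated letters (ACCACA, the reverse complement of TGTGGT) in capitals.
Runx1, chr16:92826027-92826052, minus strand: taaacaACCACAgaACCACAagttgg
Runx2, chr17:44814585-44814610, minus strand: caaacaACCACAgaACCACAagtgcg
Runx3, chr4:135120505-135120530, plus strand: ccctcaACCACAgaACCACAaggcca
The first copy began 28 bases after the annotated start in Runx1, 23 bases after it in Runx2 and 134 bases before it in Runx3. All 3 stretches shared 1 unbroken run of 18 bases that holds both copies. Runx2 had a further match 80 bases before its start. A match is a run of letters and not a measured binding site. For Runx3, the member with the pair upstream of its start, the 250 bases before the start (chr4:135120395-135120644, plus strand) read as follows.
Runx3 upstream: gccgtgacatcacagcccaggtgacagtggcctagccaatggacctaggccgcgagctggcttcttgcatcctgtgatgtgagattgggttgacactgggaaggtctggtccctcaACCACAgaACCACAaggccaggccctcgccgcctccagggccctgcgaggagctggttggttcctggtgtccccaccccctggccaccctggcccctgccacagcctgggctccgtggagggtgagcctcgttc
G and C made up 65.2% of these bases.

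Foxp3, the factor the other members act with, did not pass the test, and its P65KO libraries differed from each other. It had 1751 and 2385 counts in P65KO libraries, against 1737 and 1724 in WT, or 386 and 528 CPM in P65KO and 377 and 371 CPM in WT. P65KO replicate 1 was close to the WT libraries, and P65KO replicate 2 alone was high. The means were 457 ± 100.4 CPM in P65KO and 374 ± 4.25 CPM in WT (SD, n = 2 each), which differed by 0.29 on the log2 scale with an SE of 0.13 (edgeR adjusted p = 0.131). The unadjusted 95% interval ran over 1.01-fold to 1.48-fold. The value rests on which P65KO library is read: it was 0.04 without P65KO replicate 2 (edgeR adjusted p = 0.865) and 0.50 without P65KO replicate 1, when it passed (edgeR adjusted p = 0.0156). Foxp3 lies on chromosome X, 7579676 to 7595243 (GRCm38). It overlaps Ccdc22, an endosomal trafficking gene with 234 and 267 counts in P65KO libraries and 155 and 193 in WT, which rose 1.47-fold (edgeR adjusted p = 0.0116). It also overlaps Flicr, a noncoding RNA known to modulate Foxp3, with 67 and 72 counts in P65KO and 61 and 49 in WT (edgeR adjusted p = 0.262).

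Foxp1, a forkhead repressor that keeps naive T cells quiescent, rose. It had 1046 and 1124 counts in P65KO libraries, against 832 and 692 in WT, or 231 and 249 CPM in P65KO and 181 and 149 CPM in WT. Both P65KO libraries were above both WT libraries. The means were 240 ± 12.9 CPM in P65KO and 165 ± 22.4 CPM in WT (SD, n = 2 each), which differed by 0.54 on the log2 scale with an SE of 0.11 (edgeR adjusted p = 0.00315). The call was lost without WT replicate 2, at log2 0.41 (edgeR adjusted p = 0.0805), without P65KO replicate 2 (edgeR adjusted p = 0.0547) and with no filter (edgeR adjusted p = 0.0821). The Foxp3 to Foxp1 ratio of RPKM was 3.19 and 4.04 in P65KO libraries and 3.98 and 4.74 in WT, and these overlapped. Foxp1 spans 98925342 to 99522746 of chromosome 6 (GRCm38).

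The remaining members stood slightly higher in P65KO libraries, and none passed. Ets1 had 10330 and 11999 counts in P65KO, against 10320 and 9981 in WT, or 2278 and 2657 CPM in P65KO and 2240 and 2148 CPM in WT. As for Foxp3, P65KO replicate 1 was near the WT libraries and P65KO replicate 2 above them. Its log2 difference was 0.17 (95% interval 0.970-fold to 1.30-fold, edgeR adjusted p = 0.261). Elf1, an ETS factor of lymphocytes whose gene overlaps Wbp4, had 1450 and 1464 counts in P65KO and 1349 and 1324 in WT, or 320 and 324 CPM in P65KO and 293 and 285 CPM in WT. Its libraries were tight within each group, and the log2 difference was 0.16 (95% interval 0.978-fold to 1.27-fold, edgeR adjusted p = 0.236). Bcl11b, needed for T lineage commitment and for Treg function, had 1965 and 2169 counts in P65KO and 1943 and 1734 in WT, or 433 and 480 CPM in P65KO and 422 and 373 CPM in WT. The nearest libraries of the groups differed less than the libraries within a group, and the log2 difference was 0.20 (95% interval 0.991-fold to 1.33-fold, edgeR adjusted p = 0.179).

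**Figure D4:**
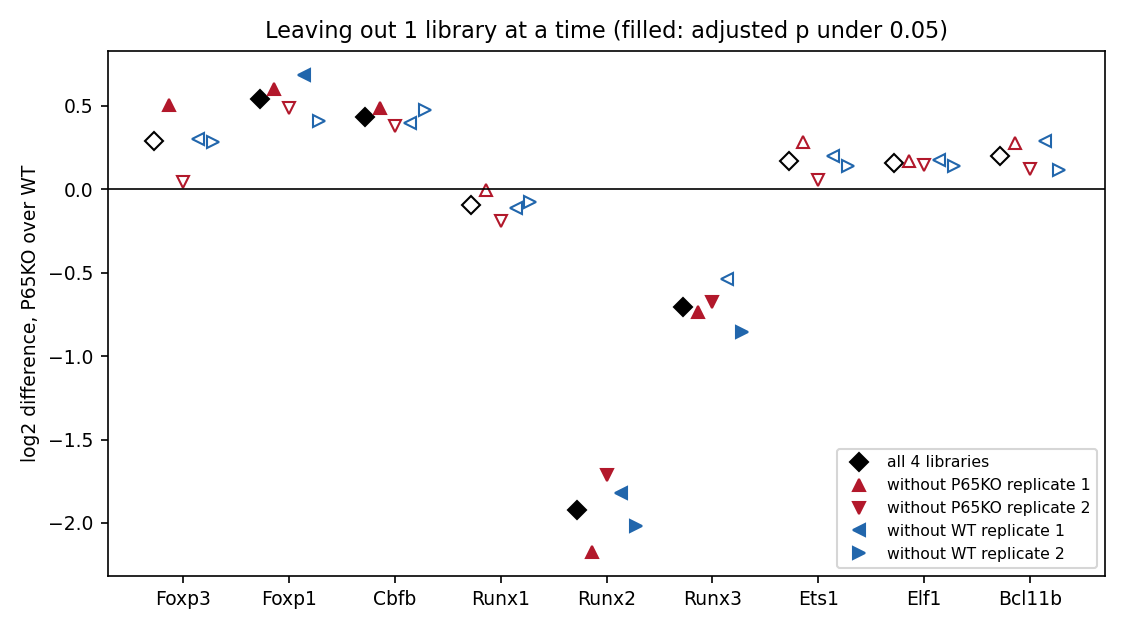
Log2 difference of P65KO over WT (y axis) for each member with all 4 libraries (diamond) and with 1 library left out (triangles), filled where the adjusted p was under 0.05. The Runx2 symbols are all filled, and those of Foxp3 run from 0.04 to 0.50.

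P65KO replicate 1 held the most myeloid transcript. Without it, the log2 differences were -2.17 for Runx2, -0.74 for Runx3, 0.49 for Cbfb, 0.60 for Foxp1 and 0.50 for Foxp3. Without P65KO replicate 2 instead, they were -1.71, -0.67, 0.38, 0.48 and 0.04 in the same order. In each of these fits the lone P65KO library was assumed to vary as the WT libraries did. P65KO replicate 2 was itself above both WT libraries in the myeloid sum (492 CPM, against 311 and 357 CPM in WT). It also had the highest erythroid sum of the 4 libraries (192 CPM). Leaving out either library therefore does not remove such transcripts, whose part was not tested.

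Genes that Foxp3 is known to activate were mostly lower in P65KO libraries, while Foxp3 itself stood at a log2 difference of 0.29. This and the other gene lists share some members and were chosen with earlier results of these data known. Their counts are given as a description and not as a test. Of 16 such genes, all tested, 13 fell, 2 rose and Lrrc32 did not pass, against 11.7% of all genes lower and 9.0% higher. The median log2 difference was -0.82, against 0.00 over all genes tested. Tigit, an inhibitory receptor gene, averaged 6.96 ± 2.36 CPM in P65KO and 250 ± 10.5 CPM in WT (SD, n = 2 each), and the integrin gene Itgae (CD103) 12.6 ± 1.60 CPM in P65KO and 172 ± 36.6 CPM in WT. Il10, encoding interleukin-10, had 0 and 1 counts in P65KO libraries and 19 and 22 in WT, a ratio of WT over P65KO of 40.1 (exact 95% interval 6.80 to 1622, counting error only). The call of Il10 was lost without WT replicate 2 (edgeR adjusted p = 0.0611). The genes that rose were Gpr83, an orphan receptor gene, at log2 0.79, and Il2ra, the interleukin-2 receptor alpha chain, at 0.43. The call of Il2ra was lost without WT replicate 1, WT replicate 2 or P65KO replicate 2 and with no filter (edgeR adjusted p of up to 0.175).

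Among 13 genes that Foxp3 is known to repress, 10 were tested, of which 5 rose, 2 fell and 3 did not pass, with a median log2 difference of 0.28. Over all genes tested, 9.0% rose and 11.7% fell. The chromatin organiser gene Satb1 averaged 617 ± 70.4 CPM in P65KO and 245 ± 10.7 CPM in WT, and the phosphodiesterase gene Pde3b 33.5 ± 3.18 CPM in P65KO and 15.7 ± 1.59 CPM in WT (SD, n = 2 each). Dapl1, at 19.9 ± 4.01 CPM in P65KO and 6.48 ± 1.49 CPM in WT, lost its call without WT replicate 1 (edgeR adjusted p = 0.0542). The genes that fell were Il7r, the interleukin-7 receptor, at log2 -0.92, and the phosphatase gene Ptpn22, at -0.59. Il17a was at 0 counts in all 4 libraries. Without WT replicate 1, 4 genes of this list passed, in place of 7.

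Of 34 binding partners and chromatin cofactors of Foxp3, all tested, 8 fell, 4 rose and 22 did not pass, with a median log2 difference of 0.05. Over all genes tested, 11.7% were lower and 9.0% higher. Those that fell included the nuclear receptor gene Rora, with 11 and 20 counts in P65KO and 70 and 73 in WT. Irf4, an activation-induced factor of effector Treg cells, averaged 44.6 ± 7.68 CPM in P65KO and 112 ± 2.07 CPM in WT (SD, n = 2 each). Beside Satb1, Ikzf1 (Ikaros) rose by 0.70 on the log2 scale and the chromatin remodeller gene Arid1a by 0.39, and the call of Arid1a was lost without WT replicate 1, WT replicate 2 or P65KO replicate 2 and with no filter (edgeR adjusted p of up to 0.164). The histone deacetylase gene Hdac1 had 319 and 294 counts in P65KO and 250 and 251 in WT (edgeR adjusted p = 0.0511).

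Upstream regulators of the Foxp3 locus, which include its DNA demethylases and the factors that bind its enhancers, went both ways. Of 29, all tested, 5 rose, 4 fell and 20 did not pass, against 9.0% higher and 11.7% lower over all genes tested, and the median log2 difference was 0.02. Kmt2d, a histone methyltransferase gene, averaged 281 ± 24.1 CPM in P65KO and 173 ± 0.0249 CPM in WT, and the demethylase gene Tet3 146 ± 4.58 CPM in P65KO and 94.7 ± 0.573 CPM in WT (SD, n = 2 each). Nfatc1, a calcium-responsive factor, fell to 219 ± 6.26 CPM in P65KO, against 400 ± 38.3 CPM in WT, and Gata3, the T helper regulator, to 70.2 ± 10.4 CPM in P65KO, against 115 ± 2.67 CPM in WT. The call of Gata3 was lost without WT replicate 2 and with no filter (edgeR adjusted p of 0.0558 and 0.0516). Nr4a2 was called at 10 and 10 counts in P65KO and 27 and 23 in WT, and the call was lost without any 1 of the 4 libraries (edgeR adjusted p of 0.111 to 0.265), with no filter (0.0892), with DESeq2 (0.305) and with limma-voom (0.0508). The number of genes called in this list was 5 without WT replicate 1, without WT replicate 2 or without P65KO replicate 2, in place of 9.

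**Figure D5:**
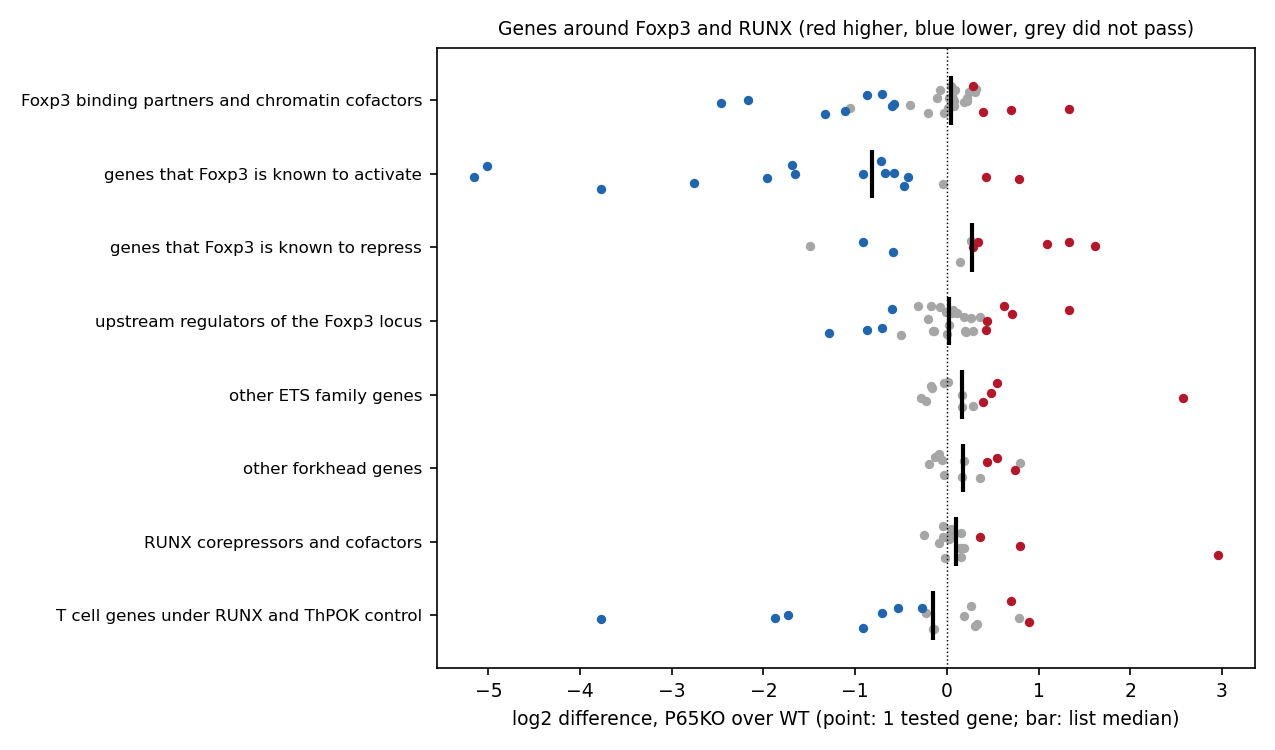
Log2 difference of P65KO over WT (x axis) for each tested gene of 8 lists around Foxp3 and RUNX, with the list median as a bar. The genes that Foxp3 is known to activate have a median of -0.82, and the medians of the other lists lie between -0.15 and 0.28.

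Among relatives of the members, those that passed were all higher in P65KO libraries. Of 18 other ETS genes, 13 were tested, 4 rose and 9 did not pass, with a median log2 difference of 0.16, against 9.0% higher and 11.7% lower over all genes tested. Spi1, the myeloid ETS factor PU.1, was 5.95-fold higher, with 166 and 97 counts in P65KO and 17 and 28 in WT, and it is itself among the myeloid markers given above. Ets2 averaged 78.0 ± 2.73 CPM in P65KO and 53.5 ± 2.92 CPM in WT, and Etv3 148 ± 0.899 CPM in P65KO and 107 ± 0.0338 CPM in WT (SD, n = 2 each). Ets2 lost its call without WT replicate 2, and Etv3 without WT replicate 1 or WT replicate 2 (edgeR adjusted p of 0.0728, 0.0502 and 0.0506). Without WT replicate 1, 2 genes of the list passed, and without WT replicate 2, 1 gene. Of 17 other forkhead genes, 12 were tested, 3 rose (Foxn3, Foxk1 and Foxo1) and 9 did not pass, Foxp4 among them, with a median of 0.18 and the same shares over all genes. Foxo1, which holds T cells in the naive state, averaged 552 ± 54.4 CPM in P65KO and 408 ± 47.4 CPM in WT (SD, n = 2 each), and its call was lost without WT replicate 1, WT replicate 2 or P65KO replicate 2 and with no filter (edgeR adjusted p of up to 0.179). Foxk1 stood at log2 0.55 and Foxn3 at 0.74, and the call of Foxn3 was lost without WT replicate 2 and with no filter (edgeR adjusted p of 0.0545 and 0.0649). Without WT replicate 2, 1 forkhead gene of the list passed.

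Of 21 RUNX corepressors and cofactors, 16 were tested, 3 rose, none fell and 13 did not pass, against 9.0% higher and 11.7% lower over all genes tested. The median log2 difference was 0.10. Cbfa2t3, an ETO-family corepressor, was 7.74-fold higher, with 77 and 61 counts in P65KO and 12 and 6 in WT. Myeloid markers were higher in the same libraries, with the summed levels given above. Tle1, a Groucho corepressor gene, stood at log2 0.80. It lost its call without any 1 of the 4 libraries, with library totals alone, with no filter and with DESeq2 (the highest adjusted p was 0.298, with DESeq2). In each of those settings except the one without P65KO replicate 1, 1 gene of the list passed, in place of 3.

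T cell genes that RUNX proteins or the CD4-lineage factor ThPOK control went both ways. Of 20 symbols, 18 were in the table and 17 were tested, of which 7 fell, 2 rose and 8 did not pass. Over all genes tested, 11.7% fell and 9.0% rose. The median log2 difference was -0.15. Beside Itgae, Gzmb (granzyme B) averaged 5.63 ± 1.70 CPM in P65KO and 20.7 ± 5.99 CPM in WT, and Tbx21 (T-bet) 7.73 ± 1.54 CPM in P65KO and 25.8 ± 0.608 CPM in WT (SD, n = 2 each). Lef1, a factor of naive T cells, rose 1.87-fold, to 314 ± 13.7 CPM in P65KO, against 168 ± 18.9 CPM in WT. Prf1 (perforin) was 1.62-fold higher, and its call was lost without any 1 library, with no filter and with DESeq2 (edgeR or DESeq2 adjusted p of 0.0563 to 0.202). Gzmb lost its call without WT replicate 2 and with no filter (edgeR adjusted p of 0.0655 and 0.0539). Zbtb7b (ThPOK) had 1008 and 1040 counts in P65KO and 945 and 799 in WT and did not pass (edgeR adjusted p = 0.0907). Cd4 had 4371 and 4655 counts in P65KO and 5313 and 4856 in WT and did not pass (edgeR adjusted p = 0.334). Without WT replicate 2, 4 genes of the list passed, in place of 9.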

How the data were processed

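RNA was sequenced from 4 libraries, 2 labelled P65KO and 2 labelled WT, grouped by sample title. The submitters' processing notes name Subread, featureCounts, limma and GRCm38 (mm10). The sources used here give no versions, roles, annotation or strand setting. Raw counts for each Entrez gene and log2 RPKM values were deposited by the authors. The deposited log2 RPKM values equal the log2 of the count plus 0.5, scaled by gene length and library total, with no scaling between libraries. Gene lengths computed back from them were whole within 0.01 for 27178 of 27179 genes.

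Counts were filtered with filterByExpr, scaled by TMM and tested two-sided in edgeR 4.0.16 (R 4.3.3) by quasi-likelihood over 11172 genes. P-values were adjusted by the Benjamini-Hochberg method, and the threshold was 0.05. CPM values are TMM-scaled. "Rose" and "fell" mean past that threshold. SE is the log2 difference divided by the square root of F. The script was tested on simulated counts. The alternatives were no filter, RLE size factors, library totals, scaling without X and Y genes, DESeq2 1.42.0, limma-voom 3.58.1, each library left out in turn, and a replicate block.

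The 9 members and the lists were chosen with earlier results of these data known. The rule named all members and, per list, up to 3 genes per direction with the largest change among those that passed. Hdac1, Ccdc22, Flicr, Supt3, Zbtb7b, Cd4 and the other genes given outside that rule were chosen after their values were seen. The GGGNNTTCC and repeat searches were added after other promoter results had been seen. Coordinates and promoter windows came from RefSeq GRCm38.p6, matched on the Entrez identifier. Protein sequences were not used here. Some genes that the rule names are not reported here.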

Additional observations from a re-analysis of the deposited data

How the results depend on the processing

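The members passing numbered 4 under RLE size factors, library totals, scaling without X and Y genes, DESeq2 and limma-voom. With no filter on low counts 1 member passed (Runx2), and 771 genes in all (246 higher, 525 lower), against 2310. DESeq2 called 1318 genes. Leaving out 1 library gave 743 to 1633 genes and 2 to 5 members. Without WT replicate 1, 771 genes and 2 members passed, without WT replicate 2, 743 and 2, and without P65KO replicate 2, 1490 and 2. Of 99 member values under other settings, 89 kept their side of the threshold, 9 lost the call, 1 gained it and none changed sign. The lists kept between 1 and 15 calls. Upstream regulators of the Foxp3 locus had 4 calls with no filter, other forkhead genes 1, RUNX corepressors 1 and RUNX-controlled T cell genes 4, against 9, 3, 3 and 9. The labels share replicate numbers but name no pairing, and deviations of same-numbered libraries correlated at -0.14. A replicate block gave 2319 genes and 4 members and changed no call of a member. With crossed numbers, chosen after seeing the data, 2973 genes and 6 members passed. Depth limits Runx2 most, at 23 to 32 counts in P65KO libraries.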

Other observations

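Set against the summed counts of Cd3e, Cd3d and Cd3g in the same library, Foxp3 had 15.8 and 21.7 counts per 100 CD3 counts in P65KO libraries, against 13.6 and 12.9 in WT. Cbfb had 14.5 and 15.7 in P65KO and 9.60 and 9.77 in WT, and Runx3 1.58 and 1.51 in P65KO and 2.47 and 1.91 in WT. Runx1 had 4.88 and 5.56 in P65KO and 4.86 and 4.80 in WT, so on this scale it was not lower. Cd3g itself fell by 0.27 on the log2 scale, while the T cell gene Cd247, not in the sum, rose by 0.54. Such a ratio shows unequal change only.

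The genes whose centred log2 CPM profile lay closest to that of Foxp3 over the 4 libraries were Ndor1, a flavin oxidoreductase gene, Fam122a and Dctn6, a dynactin subunit gene. Their root mean square distances were 0.0154, 0.0180 and 0.0182, among 8482 genes whose range was at least 0.5 times that of Foxp3. Ndor1 stood at 39.0 and 53.4 CPM in P65KO libraries and 37.1 and 37.4 CPM in WT. Since they were picked for that profile, the rise of all 3 in P65KO replicate 2 follows from the choice and is no separate result. None passed the test (edgeR adjusted p of 0.184, 0.446 and 0.129).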
